A study of Mus musculus with 2 samples.

Results

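The Usp17l genes of mouse chromosome 7 were followed in RNA-seq coverage of 2C::tomato+ and 2C::tomato- embryonic stem (ES) cells. The 5 genes named are Usp17la, Usp17lb, Usp17lc, Usp17ld and Usp17le. They were measured over all covered blocks, meaning runs of bases with at least 1 aligned read in either library, in a first span at chr7:110300001-110600000 and a second span at chr7:111900001-112100000 of the build mm9. These spans held 132 of the 801091 covered blocks of the genome, 64 in the first and 68 in the second. The spans had been chosen because the positive library was high there, so the differences between the libraries are given as a description without a test.

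The cells were mouse ES cells with Kdm1a FL/FL alleles, floxed alleles of the gene of the histone demethylase LSD1, and with CreERT, on a mixed strain background. They carried the 2C::tomato reporter, were grown on gelatin in ES-KOSR medium with hygromycin and were sorted by flow cytometry into 2C::tomato+ and 2C::tomato- cells. Both populations share these alleles and this culture, and the labels do not state whether Kdm1a had been deleted. Whether the sorted cells came from 1 line or several is also not stated. Each population gave 1 library, so no difference has a replicate check, and all intervals are 95% counting intervals. In such bulk libraries, fewer cells with a transcript and less transcript per cell cannot be told apart.

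Usp17l proteins, first described under the name Dub, are deubiquitinases: cysteine proteases that cut ubiquitin off other proteins and so can spare them from degradation by the proteasome. The first members were found as immediate-early genes that cytokines switch on in blood cells. The genes are largely encoded in 1 long exon, behind a short first exon, and lie as near-identical copies among olfactory receptor genes. The 2C::tomato reporter marks a small fraction of ES cells in which retroviral MuERV-L sequences and other genes of the 2-cell embryo are transcribed.

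Since the measurements turn on how alike the copies are, the sequence around the codon of the catalytic cysteine is shown for each gene. It was read from GENCODE release M21 transcripts, 63 bases 5′ to 3′, with the cysteine codon at bases 31 to 33 of the stretch and with capitals at the bases that differ from Usp17lc.
Usp17lc: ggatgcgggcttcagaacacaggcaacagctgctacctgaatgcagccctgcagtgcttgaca
Usp17ld: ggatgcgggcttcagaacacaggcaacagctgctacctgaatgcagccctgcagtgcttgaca
Usp17le: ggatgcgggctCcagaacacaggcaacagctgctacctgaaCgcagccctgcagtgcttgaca
Usp17lb: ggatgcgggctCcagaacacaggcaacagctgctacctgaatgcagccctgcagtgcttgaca
Usp17la: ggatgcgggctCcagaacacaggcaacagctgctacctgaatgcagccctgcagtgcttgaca
Usp17ld was identical to Usp17lc in this stretch. Usp17lb and Usp17la each differed from it at 1 base and Usp17le at 2 bases.

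The promoters of 4 of the genes are alike too, and their sequence is shown as well. The RefSeq promoter table, made on GRCm38.p6, held 4 of the 5 genes, and Usp17le is named only. Each stretch has 118 bases on the gene's own strand, with capitals at the TATA-like octamer. The stretch of Usp17ld lies at chr7:103252588-103252705 (minus strand), that of Usp17lc at chr7:103416518-103416635 (plus strand), that of Usp17lb at chr7:104842587-104842704 (minus strand) and that of Usp17la at chr7:104856880-104856997 (plus strand), all in GRCm38.p6.
Usp17ld: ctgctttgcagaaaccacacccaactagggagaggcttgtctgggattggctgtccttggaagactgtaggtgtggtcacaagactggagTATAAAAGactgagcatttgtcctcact
Usp17lc: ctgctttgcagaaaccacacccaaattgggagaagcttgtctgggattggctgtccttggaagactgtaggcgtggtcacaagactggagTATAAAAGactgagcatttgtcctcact
Usp17lb: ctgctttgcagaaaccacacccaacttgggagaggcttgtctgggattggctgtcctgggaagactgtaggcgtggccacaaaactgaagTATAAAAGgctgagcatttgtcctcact
Usp17la: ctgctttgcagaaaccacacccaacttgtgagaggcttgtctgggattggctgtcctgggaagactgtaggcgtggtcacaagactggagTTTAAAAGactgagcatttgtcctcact
Against Usp17lc, the stretches of Usp17ld, Usp17la and Usp17lb differed at 4, 5 and 7 of 118 bases. The octamer TATAAAAG stood in 3 of the 4 promoters and TTTAAAAG in that of Usp17la. Searched on both strands, TATAAAAG occurred in 1.70% and TTTAAAAG in 2.10% of 32851 promoters of the same length. The octamer began 110 bases before the RefSeq start in Usp17ld, 88 in Usp17lc, 46 in Usp17la and 31 in Usp17lb, so the annotated starts are not at the same base of the shared sequence. These matches are descriptions of the letters and not binding sites.

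The positive library held 37059813 alignments of 72 bases and the negative library 33833215. A read that matched several places was listed at each of them, so a count is a number of alignments and not of reads. A scaled level is the number of alignments per 1000000 alignments of the library, and a ratio is the share of the positive library over the share of the negative library. Gene annotation of mm9 was not used here, so the list of other deubiquitinases and 2-cell genes and the markers of ES cells and fibroblasts were not measured.

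The first span was covered almost only in 2C::tomato+ cells. It held 1239 positive-library alignments against 26 negative-library ones, scaled levels of 33.4 and 0.768. The ratio was 43.5 (interval 29.5 to 66.9). The second span held 3229 against 1793, scaled levels of 87.1 and 53.0, for a ratio of 1.64 (1.55 to 1.74). Of the alignments of both spans, the first held 27.7% (26.4 to 29.1) in the positive library and 1.43% (0.936 to 2.09) in the negative library.

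The difference between the spans lay in what surrounds the Usp17l copies. Each of the 5 copies appeared as 1 long covered block of 1783 to 1921 bases. These 5 blocks held 2265 of the positive library's alignments and 12 of the negative library's, a ratio of 172 (98.5 to 334). They made up 50.7% of the positive alignments of both spans and 0.660% of the negative ones. Blocks farther than 8 kb from any copy block held 1807 and 1802 alignments, a ratio of 0.915 (0.857 to 0.978). With the blocks within 8 kb of a copy taken alone, the ratio was 108 (58.5 to 226) in the first span, from 1182 and 10 alignments, and 193 (93.4 to 481) in the second span, from 1479 and 7. The intervals of the 2 spans thus overlapped around the copies, while over the whole spans they were far apart. The same reads may be listed at copies of both spans, so the 2 ratios around the copies are not independent. Their overlap does not show that the spans were alike.

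By block, 24 of the 132 blocks had at least 20 alignments in both libraries together. A block was called higher where its ratio was at least 4 with an interval above 1, which 14 of the 24 blocks (58.3%) were and 0.980% of the 103461 blocks compared across the genome. The spans were chosen from this same contrast, so nothing is read from that share. None of the 24 compared blocks was at least 4-fold lower. All 14 called blocks were within 8 kb of a copy block, where 14 of 14 compared blocks were called, against 0 of 10 farther away. The called block with the fewest alignments, at chr7:112007841-112007934 beside the Usp17la copy, held 20 and 0. Its ratio, with the counts that stood in place of 0, was already 6.09 (from 4.51). A block with 0 negative alignments was thus called as soon as it reached the minimum of 20. This holds for 9 of the 14 called blocks. For these 9 the call says no more than that negative alignments were absent. The block with the highest ratio among those not called, at chr7:110420083-110420305 in the first span, held 32 positive and 13 negative alignments, a ratio of 2.25 (1.15 to 4.67). A further 108 blocks were too thin to compare and held 172 positive and 19 negative alignments in all. Of the 132 blocks, 102 were covered only in the positive library, 10 only in the negative library and 20 in both. However, 83 of the 132 were 72 bases long, the length of 1 alignment, and a block of 1 alignment can be covered in only 1 library. The positive library also held more alignments. The same split over all blocks of the genome was not counted, so nothing is read from it.

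**Figure D1:**
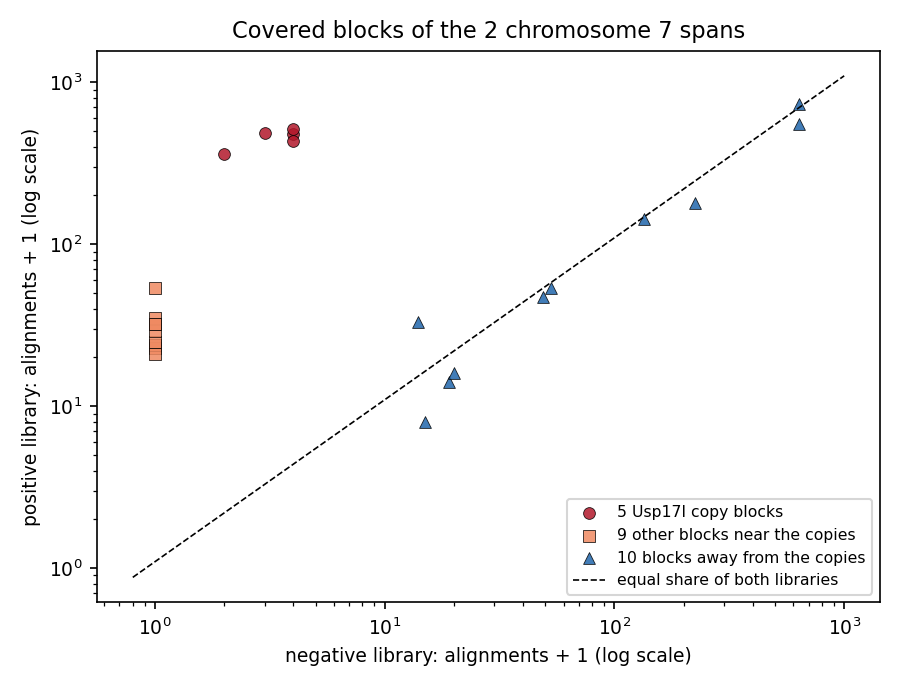
Alignments in the positive library (vertical axis) against the negative library (horizontal axis), each plus 1 on a log scale, for the 24 compared blocks of the 2 chromosome 7 spans. The dashed line marks an equal share of both libraries. The 5 Usp17l copy blocks, with 360 to 510 positive and 1 to 3 negative alignments, and the 9 other blocks near them, with 0 negative alignments, lie far above it, while the 10 blocks away from the copies lie closer to the line.

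The Usp17ld copy, at chr7:110398296-110400215 in the first span, was covered by 478 positive and 3 negative alignments. Its ratio was 145 (49.5 to 708). The Usp17lc copy, at chr7:110566036-110567956 in the same span, had 510 and 3 and a ratio of 155 (52.8 to 755). These were the copies with the longest blocks, of 1920 and 1921 bases.

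In the second span, the Usp17le copy at chr7:111916470-111918319 had 487 positive and 2 negative alignments and a ratio of 222 (61.2 to 1841). The Usp17lb copy at chr7:111988421-111990203 had 360 and 1, a ratio of 329 (58.6 to 13017). The Usp17la copy at chr7:112008730-112010583 had 430 and 3, a ratio of 131 (44.5 to 637). The 5 intervals all overlapped, and with 1 to 3 negative alignments a copy the data cannot order the copies by their ratio.

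Set against length, the copies' levels in the positive library ran in a narrow range. The scaled level per kb was 7.16 (6.56 to 7.81) in Usp17lc, 7.10 (6.49 to 7.76) in Usp17le, 6.72 (6.13 to 7.35) in Usp17ld, 6.26 (5.68 to 6.88) in Usp17la and 5.45 (4.90 to 6.04) in Usp17lb. Each neighbouring pair in this order had overlapping intervals. The interval of Usp17lb lay below those of Usp17ld, Usp17le and Usp17lc and overlapped that of Usp17la. Between 39.3% and 48.1% of a copy's alignments lay in stretches repeated elsewhere. A read listed at several copies counts in each, so these levels are not separate measurements. In the negative library the scaled level per kb was between 0.0166 in Usp17lb and 0.0478 in Usp17la.

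The 12 negative alignments stood for as few as 5 separate ones. When the 5 blocks were laid over each other 5′ to 3′, with bases counted from the 5′ edge of the Usp17lc block, 1 negative alignment began at base 227 in all 5 copies. A further 2 began at base 1494 in both Usp17ld and Usp17lc, 1 at base 1321 in both Usp17le and Usp17la, and 1 at base 1331 in Usp17la. No positive alignment of these copies began at those bases.

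The depth of the positive library, meaning the number of alignments over a base, was highest at the same base in the 5 copies. It peaked at 53 alignments at base 205 in every copy and was lower but uneven towards the 3′ end. At base 681 it was 19 in Usp17lc and Usp17ld, 9 in Usp17le, 4 in Usp17la and 1 in Usp17lb. The peak at base 205 lies in a stretch whose alignments were listed at 6 places, so its height in the copies is not a set of separate measurements. The median depth was 14 in Usp17ld, 16 in Usp17lc, 16 in Usp17le, 11 in Usp17lb and 14 in Usp17la. The first 500 bases held nearly the same number of starts in each copy, from 189 in Usp17lb to 203 in Usp17le and Usp17la. The copies parted farther on. The next 500 bases held 137 starts in Usp17ld, 132 in Usp17lc, 134 in Usp17le, 106 in Usp17la and 87 in Usp17lb. Beyond base 1500 there were 62 in Usp17lc, 55 in Usp17le, 54 in Usp17la, 42 in Usp17ld and only 10 in Usp17lb, the shortest block and the gene with the shortest coding sequence. Usp17le, Usp17la and Usp17lb no longer lay in register with Usp17lc there, so this last part is not the same stretch of sequence in each copy.

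**Figure D2:**
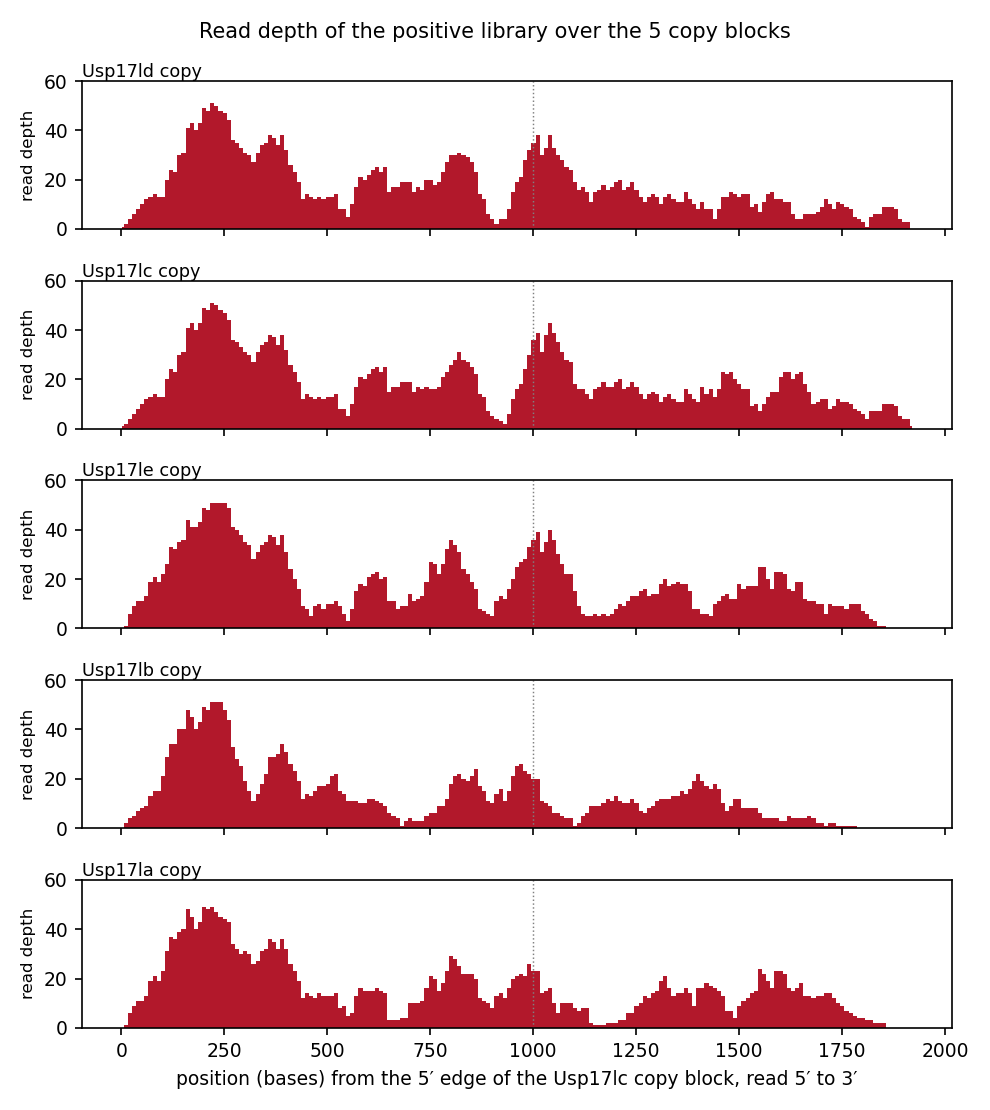
Read depth of the positive library, in alignments over a base, along the 5 copy blocks, drawn at every 10 bases from 5′ to 3′ and aligned at bases shared with the Usp17lc block. All 5 are highest near base 205, where the depth reaches 53, and the dotted line at base 1000 marks the end of the part over which the copies were compared base by base.

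**Figure D3:**
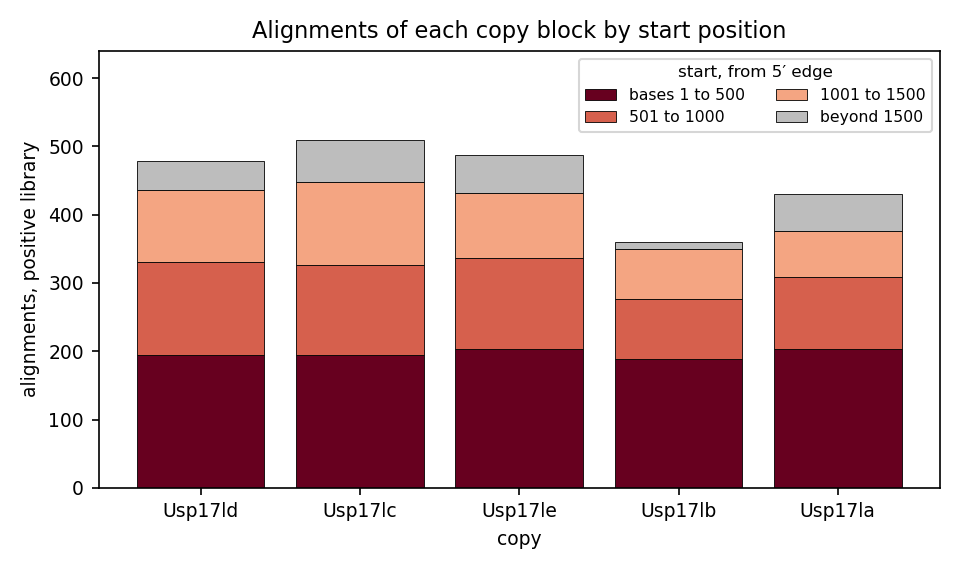
Number of positive-library alignments of each copy block, stacked by the position at which they begin, counted from the 5′ edge of the Usp17lc block. The bars reach 360 to 510 alignments, with 189 to 203 in the first 500 bases of every copy and 10 to 62 beyond base 1500. The part beyond base 1500 is not the same stretch of sequence in each copy.

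The identity of each copy was checked against GENCODE release M21, whose coordinates belong to another build, so only distances within a gene, strands and gene order were used. The coding sequences have 545 codons in Usp17ld and Usp17lc, 542 in Usp17le, 526 in Usp17la and 468 in Usp17lb. The tracks keep no strand, but identical start patterns show whether copies lie in the same or in mirrored orientation. Usp17ld, Usp17le and Usp17lb lay in 1 orientation and Usp17lc and Usp17la in the other, for all 10 pairs, which are the orientations of the annotated minus and plus strands. The annotated order puts 11 genes between Usp17ld and Usp17lc, 8 of them olfactory receptors, and 106 between Usp17lc and Usp17le, 66 of them olfactory receptors. Between Usp17le and Usp17lb it has 1, the processed pseudogene Gm4887, and between Usp17lb and Usp17la it has 0. The gaps between neighbouring copy blocks were 166, 1349, 70.1 and 18.5 kb in this order.

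Upstream of the long blocks, small covered blocks lay near the annotated distance of the first exons. For Usp17ld, a block of 272 bases with 23 positive and 0 negative alignments had its nearer edge 746 bases from the long block, against 783 bases between the annotated exons. For Usp17lc, blocks of 333 and 272 bases with 28 and 24 alignments stood 746 and 2370 bases upstream, against annotated distances of 783 and 2407. The annotated upstream exons are only 28 bases long in Usp17ld and 50 bases in Usp17lc. They are shorter than 1 alignment of 72 bases, so the alignments of these blocks cannot lie within them. For Usp17la, a block with 20 alignments stood 796 bases upstream, against 798, and the second annotated exon, at 3110 bases, had only a 72-base block with 2 alignments near it. None of these blocks had a negative alignment. The annotated upstream exons of Usp17lb, at 787 and 790 bases, had no covered block. The distances do not separate the names: the blocks of Usp17ld and Usp17le also lie near the distances annotated for Usp17lb, those of Usp17le near that of Usp17ld, and 1 of those of Usp17la near 1 annotated for Usp17lc. The names therefore rest on the gene order by which they were given, and only the orientations were a check of them.

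Upstream of Usp17le, blocks with 31, 19, 14 and 14 positive and 0 negative alignments followed each other at distances of 2270, 2295 and 2314 bases. The nearest, the next and the farthest lay 772, 3042 and 7651 bases from the long block, against annotated exons at 777, 3047 and 7640 bases. The farthest annotated exon has 28 bases, too few to hold 1 alignment, while the block near it has 89. The remaining block, between the last pair, lay at no annotated exon. Its 14 alignments could all be listings of those in the nearest or the next block, and all 19 of that next block could be listings of those in the nearest, since they began at matching bases. Of the 14 in the farthest block, at most 10 could be shared with the nearest. The counts of these upstream blocks are therefore not independent of each other.

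At the other end, the block of Usp17lb was 352 bases longer than the longest annotated exon and that of Usp17le 95 bases longer. The blocks of Usp17ld, Usp17lc and Usp17la, of 1920, 1921 and 1854 bases, were shorter than their annotated exons of 1959, 2353 and 2450 bases. Starts beyond the annotated stop codon numbered 56 (11.5%) in Usp17le, 36 (8.37%) in Usp17la, 28 (7.78%) in Usp17lb, 33 (6.47%) in Usp17lc and 25 (5.23%) in Usp17ld. Other small blocks near the copies also had 0 negative alignments, such as chr7:110568019-110568372 after Usp17lc with 53 positive ones. With 3 counts in place of 0 its ratio was 16.1, and the interval began at 12.7. The ratio was 11.8 (from 9.18) with each start position counted 1 time. It was 10.02 (from 7.70) with repeated stretches left out, where a stretch needed only 8 starts, an alternative chosen after seeing the data.

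How far the 5 copies were measured separately was asked next, because reads of 72 bases from 1 copy can match another. In the tracks, 39.3% of the alignments of Usp17la lay in stretches of 64 bases whose starts recurred exactly elsewhere. The share was 43.5% in Usp17lb, 44.2% in Usp17le, 47.2% in Usp17ld and 48.1% in Usp17lc. A stretch of 156 bases, from base 132 to base 287, was listed at 6 places, with 60 positive and 0 negative alignments lying wholly inside it. No matching stretch was found on another chromosome.

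Over the first 1000 bases the blocks could be aligned to each other base by base, and alignments beginning at the same base of both copies were counted as possibly shared. Usp17ld could share 96.98% of its alignments with Usp17lc, and Usp17lc 98.5% with Usp17ld. For Usp17le, 76.9% could be shared with Usp17ld and 82.2% with Usp17la. For Usp17lb the values were between 72.5% with Usp17lc and 73.9% with Usp17le. With the blocks moved against each other by up to 100 bases, the pairs shared a median of 14.5% to 17.8% and at most 25.4%, against at least 60.5% in register. The register was chosen by identical stretches of these same data, so a higher value there was set by that choice. Moved blocks also pair unlike sequence, so their values do not measure how much coincidence adds in register.

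**Figure D4:**
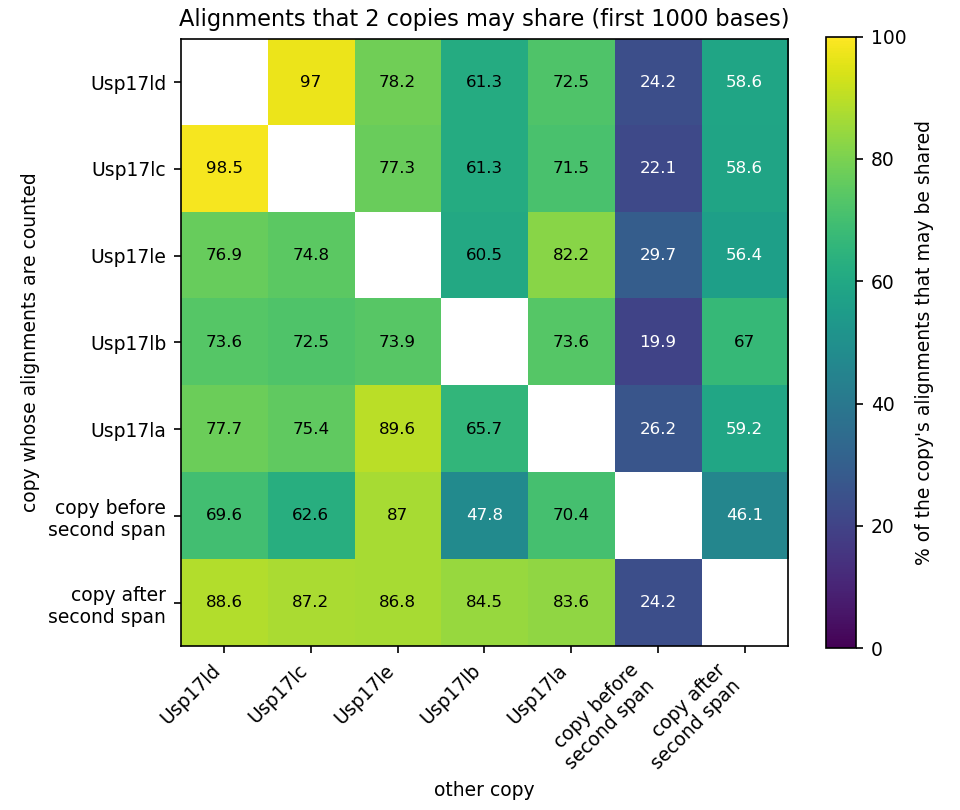
Highest percentage of the positive library's alignments in the copy named on the left that may also be listed in the copy named below, over the first 1000 bases, for the 5 copies and the 2 copies outside the spans. Usp17ld and Usp17lc share up to 96.98% and 98.5%, and the other pairs of the 5 genes share between 60.5% and 89.6%.

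Exact matches between the annotated transcripts were counted over whole transcripts and without regard to coverage, so they stand beside the possible sharing and are not on the same basis. Usp17lc and Usp17ld have 98.4% identical coding bases and share 846 exact 72-base words, 44.2% of those of Usp17ld. The other pairs have between 90.7% and 94.5% identical coding bases. Usp17ld and Usp17le share 90 exact words, 4.70% of those of Usp17ld, and up to 78.2% of the alignments in the first 1000 bases of Usp17ld could be listed at Usp17le. Words found in no other gene of the 5 or in the pseudogene Usp17le-ps made up 55.8% of Usp17ld, 63.7% of Usp17lc, 83.7% of Usp17le, 86.0% of Usp17lb and 93.5% of Usp17la. Whether mismatches were allowed in the alignment is not given in the sources used here.

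Counted as strictly as the tracks allow, few alignments could be shown to belong to 1 copy alone. Of the 276 positive alignments in the first 1000 bases of Usp17lb, at least 26 (9.42%) could not be listings of another copy. The same bound was 4 of 337 in Usp17le, 2 of 309 in Usp17la, 1 of 326 in Usp17lc and 0 of 331 in Usp17ld. These are lower bounds. They do not show that the remaining alignments were shared, since alignments of different copies can begin at the same base by coincidence. The 1579 positive alignments listed in this part of the 5 copies could be as few as 457 separate ones, and the 5 negative ones as few as 1. The ratio was then 417 (74.5 to 16515), with the listed alignments giving 288 (123 to 889). The count of 457 also takes the negative alignments down to 1, so 417 is not a lower bound of the ratio. The family was far higher in the positive library on either count, in spans chosen for being high there. Over these bases, however, the tracks do not show the level of Usp17ld apart from Usp17lc, or of Usp17le and Usp17la apart from the others.

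Farther towards the 3′ end the copies no longer lay in 1 register. In Usp17lc the 200 bases after base 1500 held the starts of 41 positive alignments. Of these, at most 4 began at the same base in Usp17le, 5 in Usp17la and 0 in Usp17lb. With the copy moved by 57 bases, 19 matched in Usp17le and 21 in Usp17la. In Usp17lb, 7 matched with the copy moved by 28 bases. Usp17ld kept its register there, with at most 19 of the 41 shared.

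The same start patterns led to 2 further copies on chromosome 7 outside the spans. The first, at chr7:111800763-111801768, lay 98.2 kb before the second span and had 142 positive and 1 negative alignments over 4 blocks, a ratio of 130 (22.9 to 5156). It lay mirrored to the Usp17le copy, and 87.0% of its alignments in the shared part could be listings of Usp17le. The second, at chr7:115670873-115672520, had 272 and 2 alignments over 7 blocks, a ratio of 124 (34.0 to 1030). Of its alignments, between 83.6% and 88.6% could be listed in any 1 of the 5 genes. In the first 1000 bases, all 115 positive alignments of the former and all 219 of the latter could be listings of other copies. GENCODE lists the pseudogene Usp17le-ps before Usp17le on the plus strand, but the copy was given no name, since it was not placed by annotation. Among transcripts outside the family, the processed pseudogene Gm5053 shared the most 40-base words with the 5 genes, 376, against 119 for the next, the vomeronasal receptor gene Vmn2r102.

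The blocks of the second span away from the copies held similar shares of both libraries. Between the Usp17le and Usp17lb copies, a group of 9 blocks had 1004 positive and 1143 negative alignments, a ratio of 0.802 (0.736 to 0.874). Its largest block, at chr7:111970023-111971093, had 549 and 633, a ratio of 0.792 (0.705 to 0.889). Stretches of it recurred at chr15:94409938-94411647, so its alignments may come from either place. The neighbouring block at chr7:111971623-111972004 had 178 and 223, a ratio of 0.729 (0.595 to 0.891), with stretches recurring at chr15:94409057-94409150. The blocks at chr7:111969713-111970016, chr7:111971186-111971356 and chr7:111972084-111972273 had ratios of 0.967, 0.930 and 0.875. The block with the most alignments of the span, at chr7:112097696-112098993, had 730 and 634, a ratio of 1.05 (0.944 to 1.17), and shared stretches with chr3:137591012-137591586. Together with the other second-span blocks away from the copies, these blocks carried 98.2% of the negative alignments of both spans. In the first span, the 26 blocks away from the copies had 57 and 16 alignments, a ratio of 3.25 (1.84 to 6.07), well below the ratio around the copies.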

How the data were processed

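Per the submitters' processing notes, reads were aligned with Bowtie to mm9. The version of Bowtie was not given in the sources used here, and neither were its settings. The authors deposited 1 coverage signal track per library, made from a sorted BAM file per the file headers and not scaled to depth. Strand is not kept. Coverage was decoded into ungapped alignments of 72 bases, which left no negative or fractional start count in either track. Reads across splice junctions are not among them. With 37059813 and 33833215 alignments, 1 alignment amounts to a scaled level of 0.0270 in the positive and 0.0296 in the negative library.

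Covered blocks were compared by their shares of each library's alignments, with exact conditional binomial (Clopper-Pearson) 95% intervals, and 3 counts stood in place of 0. These intervals hold the error of counting alone. Reads were not marked by molecular identifiers and were listed at several places, so the intervals are too narrow. Blocks of the spans with at least 50 alignments, at most the 12 with most, were named. Others, chosen after their values were seen, are the block just short of the fold rule, the smallest called block and the blocks upstream of the copies. The members and lists were chosen with earlier results of these data known. Decoding, the search for repeated stretches and the fold rule were tested on simulated data. Alternatives were scaling by the median block, depth in place of alignments, each start counted 1 time, weighting or leaving out repeated stretches, and other block limits. Lists that need an annotation of mm9 were not analysed here. Python 3.11.15, NumPy 2.4.6, pandas 2.3.3, SciPy 1.17.1, Biopython 1.88 and Matplotlib 3.10.9 were used.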

Additional observations from a re-analysis of the deposited data

How the results depend on the processing

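Of 107 values recomputed under the alternatives, 95 stayed within the interval of the reported value or within 1.5 times the reported count, and 0 of those whose interval excluded 1 changed direction. With each start position counted 1 time, the blocks at chr7:112097696-112098993 and chr7:111969713-111970016, whose intervals include 1, went from 1.05 to 0.944 and from 0.967 to 1.04. The 35 recomputed ratios of the 5 copy blocks all stayed at or above 4. The extremes were both in Usp17lb and rest on almost no negative alignments: 58.6 with 3 counts in place of 0 (interval from 47.2), and 665 with 0.333 weighted negative alignments. The ratio of the second span became 1.82 with each start position counted 1 time. With stretches defined from 8 starts, an alternative chosen after seeing the data, it became 1.52 with alignments weighted by places and 1.50 with repeated stretches left out. The called blocks of the spans numbered 6 with a minimum of 50 alignments and 8 with each start counted 1 time, since fewer blocks or alignments then entered. Over all blocks compared across the genome, the called share was 0.502% with the minimum of 50 and 0.764% with each start counted 1 time. Nothing is read from these counts either, since the spans were chosen from this contrast. The first span's share became 31.3% in the positive and 2.25% in the negative library with each start counted 1 time, and 25.6% in the positive library with weighting by places. The causes of these shifts in share were not tested. No paired analysis was possible because there is 1 library per population, and no library could be left out. With 12 negative alignments over the 5 copies, depth limits the ratios from above, and shared reads limit any statement on a single copy.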
